A study of Homo sapiens with 12 samples.

Results

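The data describe 9 genes of pyruvate dehydrogenase (PDH) and the tricarboxylic acid (TCA) cycle, chosen by name, out of 28008 genes listed in one count table and 25435 in another. PDHA1 encodes the catalytic E1 alpha subunit of PDH. CS, IDH3A, OGDH, DLST, SUCLG1, SUCLA2, FH and MDH2 encode enzymes or subunits that act in turn around the cycle, from citrate synthase to malate dehydrogenase. All 9 were measured in every library and all 9 passed the filter on low counts in both experiments.

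Transcripts were measured by bulk RNA-Seq in human LNCaP prostate cancer cells, an androgen-dependent line from a lymph node metastasis. In the first experiment, LNCaP-ER/tet-MUC1shRNA cells, a LNCaP derivative selected for growth in enzalutamide (ENZ) that carries a doxycycline-inducible MUC1 shRNA, received 500 ng/ml doxycycline (DOX) or its vehicle over 7 days. The second set LNCaP cells against the line LNCaP/MUC1-C OE, whose cells express the MUC1-C subunit from a vector with a CMV promoter. The labels call the LNCaP controls wild type, whereas the column names call them vector. Titles of the LNCaP/MUC1-C OE samples read "LNCaP shMUC1-C OE", with an "sh" that the sources used here do not explain. Each group had 3 libraries, from cells cultured in triplicate, so the spread between libraries may be technical. DOX-treated cells without the MUC1 shRNA were not analysed here, so DOX and shRNA induction cannot be told apart. In the second experiment separate lines were compared, so MUC1-C expression and other differences between these lines cannot be told apart. The words "with overexpression" below name that comparison and not a cause.

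PDH commits glycolytic pyruvate to acetyl-CoA in the mitochondrial matrix, and PDH kinases (PDK1 to PDK4) switch it off by phosphorylation of PDHA1. Citrate synthase joins acetyl-CoA to oxaloacetate, and the cycle then oxidizes citrate in a series of dehydrogenase steps that feed electrons to the respiratory chain. The 2-oxoglutarate dehydrogenase complex (OGDH, DLST and DLD) has the same architecture as PDH and shares its E3 subunit DLD. Normal prostate epithelium is known for secreting citrate instead of oxidizing it.

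Libraries held 28045894 to 45807989 counts in the DOX experiment and 13806856 to 19208944 in the overexpression experiment. MUC1 itself was at the limit of detection in LNCaP-ER cells, with 26, 10 and 13 counts in the vehicle libraries and 3, 42 and 8 in those labelled DOX. The library labelled DOX 2 thus had the highest MUC1 count of the 6, against its label, and it also listed 11.2% of genes at 0 against 28.0% to 38.1% in the other 5. MUC1 did not differ between the groups (log2 fold change 0.12, SE 0.93, edgeR quasi-likelihood adjusted p = 0.935), and without that library its log2 fold change was −1.83 (adjusted p = 0.0617). The groups are therefore named by their labels throughout. Vehicle replicate 1 also stood apart from its group. Chi-square per degree of freedom between libraries was 48.6 and 48.4 for vehicle replicate 1 against vehicle replicates 2 and 3. It was 5.51 between vehicle replicates 2 and 3. For the library labelled DOX 2 it was 51.5 against DOX 1 and 61.7 against DOX 3, with 24.97 between DOX 1 and DOX 3. In the second experiment MUC1 rose from 30, 25 and 31 counts to 9168, 9959 and 12622. Of 10 luminal prostate markers, the LNCaP-ER libraries had a summed 4823 to 6090 CPM (counts scaled to library size), whereas the LNCaP libraries had 375 to 391 and the LNCaP/MUC1-C OE libraries 89.2 to 100.2. KLK3, KLK2 and FOLH1 were at 0 in all 3 LNCaP/MUC1-C OE libraries and 8 of the 10 markers were lower there, so several defining markers of LNCaP cells were absent from that group; HOXB13 did not pass the test. In the DOX experiment 5 of the 10 luminal markers were higher and 1 lower, and the 5 leukocyte markers summed to 5.15 to 7.53 CPM in vehicle libraries and 22.5 to 23.4 CPM in those labelled DOX, with CD68 as the 1 marker tested and higher. The part of these marker differences in the results below was not tested. In bulk samples, fewer cells of a type and less RNA per cell cannot be told apart.

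Levels per transcript length placed CS and MDH2 at the top of the set in all groups. In the vehicle libraries CS stood at 147 ± 20.8 TPM (a unit scaled for library size and transcript length; SD, n = 3) and MDH2, which regenerates oxaloacetate, at 110 ± 12.3 TPM. FH, the fumarase, followed at 52.3 ± 9.62, SUCLG1 at 41.8 ± 1.48, OGDH at 36.7 ± 5.93, IDH3A at 24.5 ± 3.75, SUCLA2 at 20.2 ± 1.53, DLST at 17.6 ± 2.52 and PDHA1 at 8.53 ± 2.22 TPM. With each library's CS level set to 1, SUCLG1 and OGDH overlapped as neighbours in this order, as did SUCLA2 and DLST, and the other 6 neighbouring pairs did not. In the libraries labelled DOX, OGDH stood at rank 3, from rank 5 in vehicle libraries, ahead of FH and SUCLG1 in 3 of 3 libraries.

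The overexpression table gave no TPM, so levels there were set per length against CS, with lengths implied by the counts and TPM of the first experiment. In LNCaP libraries the order was MDH2 (1.23 ± 0.061 relative to CS), CS, SUCLG1 (0.810 ± 0.043), FH (0.636 ± 0.010), SUCLA2 (0.615 ± 0.022), PDHA1 (0.512 ± 0.016), IDH3A (0.479 ± 0.025), DLST (0.432 ± 0.012) and OGDH (0.208 ± 0.0046). FH overlapped with SUCLA2 in this order, and PDHA1 with IDH3A. The tables were normalized separately and the lines differ, so no test was made between them. PDHA1 was the lowest of the set in LNCaP-ER libraries and OGDH the lowest in LNCaP libraries, and in LNCaP/MUC1-C OE libraries OGDH was lower still, at 0.098 ± 0.0069 relative to CS.

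**Figure D1:**
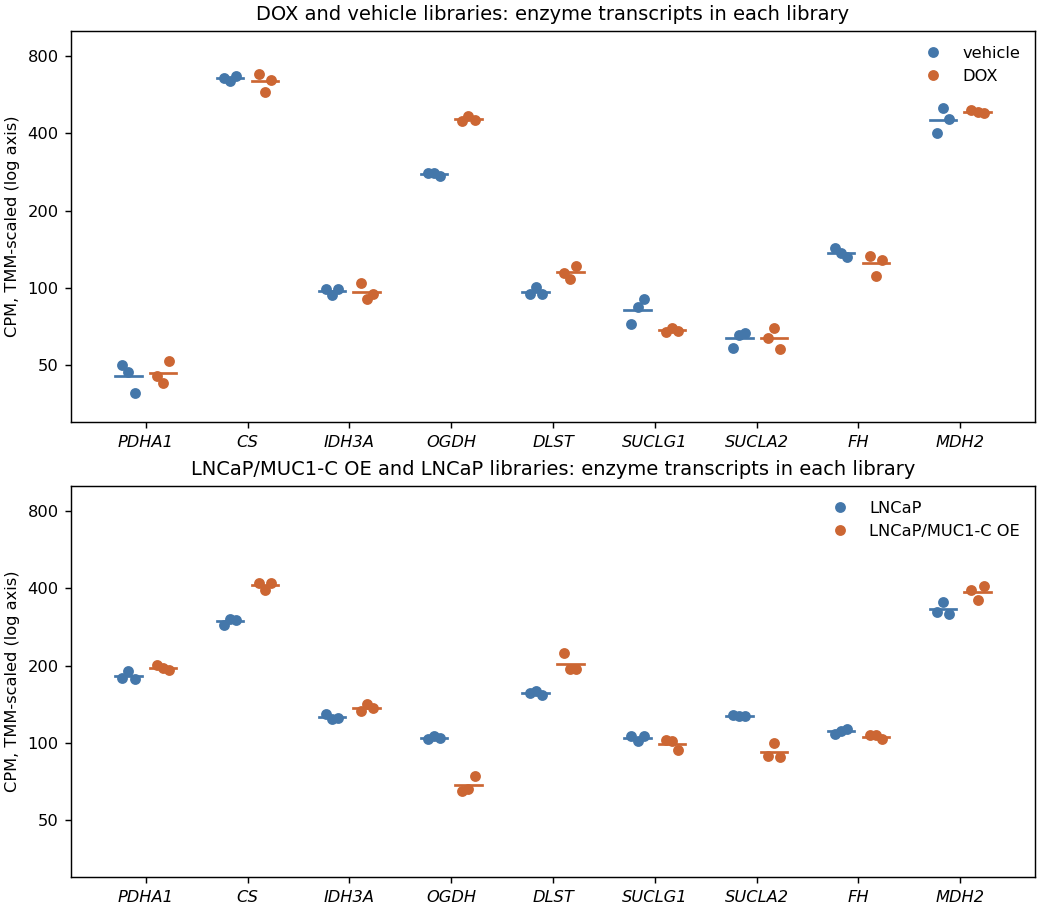
CPM of the 9 enzyme transcripts (TMM-scaled, log axis) in each library; points are libraries and bars are means of 3. OGDH was higher in all libraries labelled DOX (446 to 466) than in vehicle libraries (272 to 281), and lower in all LNCaP/MUC1-C OE libraries (64.7 to 74.4) than in LNCaP libraries (104 to 106).

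OGDH, the E1 component of the 2-oxoglutarate dehydrogenase complex, was the member that changed in both experiments, and it moved in opposite directions. Its level was 281, 281 and 272 CPM in the vehicle libraries and 446, 466 and 449 CPM in the libraries labelled DOX. The groups did not overlap, and OGDH was 1.63-fold higher with DOX (log2 fold change 0.71, SE 0.08, 95% interval 0.51 to 0.90, edgeR adjusted p = 0.00106). Without the library labelled DOX 2 the log2 fold change was 0.72 (adjusted p = 0.000505).

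In the overexpression experiment OGDH stood at 104, 106 and 104 CPM in LNCaP libraries and at 64.7, 66.0 and 74.4 CPM in LNCaP/MUC1-C OE libraries. The groups again did not overlap, and OGDH fell to 0.654-fold (log2 fold change −0.61, SE 0.06, adjusted p = 4.67e-08). Of 11682 genes tested in both experiments, 774 (6.63%) were past the threshold as higher with DOX and lower with overexpression, and OGDH was the single one of the 9 enzymes among them. Another 927 genes (7.94%) were lower and then higher, 372 were higher in both and 416 lower in both.

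Ratios within a library do not depend on how libraries are scaled. OGDH counts made up 15.1%, 14.4% and 14.2% of the summed counts of the 9 genes in vehicle libraries and 20.7%, 23.0% and 21.4% in those labelled DOX. In LNCaP libraries the share was 6.82%, 6.72% and 6.83%, and in LNCaP/MUC1-C OE libraries 3.74%, 3.98% and 4.36%. Neither pair of groups overlapped.

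DLST encodes the E2 core onto which OGDH docks. The log2 ratio of OGDH to DLST counts was 1.53 ± 0.050 in vehicle libraries and 1.98 ± 0.12 in those labelled DOX (SD, n = 3). It was −0.58 ± 0.013 in LNCaP and −1.57 ± 0.21 in LNCaP/MUC1-C OE libraries, a difference of −0.99, with OGDH lower and DLST higher in the same libraries. OGDHL, a paralog of OGDH, went the other way from OGDH under overexpression, with 16.4, 12 and 14.4 CPM in LNCaP and 33.6, 27.4 and 24.5 CPM in LNCaP/MUC1-C OE libraries (log2 fold change 0.99, SE 0.13, adjusted p = 8.62e-06). With DOX it was at 0.16 (SE 0.19, adjusted p = 0.57) with overlapping groups. No test was made of these ratios.

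**Figure D2:**
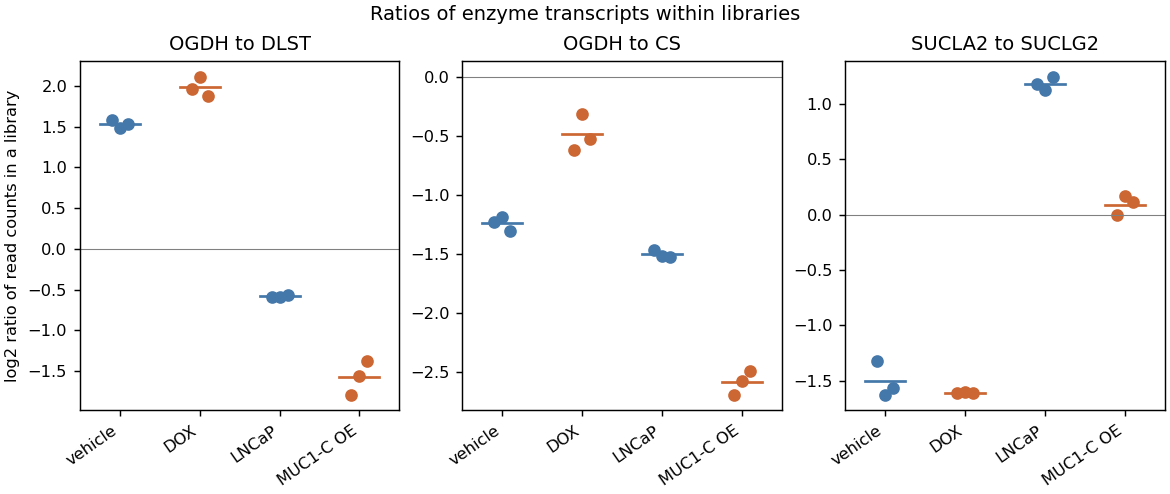
Log2 ratios of read counts within each library for OGDH to DLST, OGDH to CS and SUCLA2 to SUCLG2; points are libraries and bars are means of 3. The OGDH ratios rose in libraries labelled DOX and fell in LNCaP/MUC1-C OE libraries, and SUCLA2 to SUCLG2 fell from 1.18 to 0.09 in the latter.

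OGDH was the single member past the threshold between the DOX and vehicle groups, 1 of 9 against 27.3% of the 14683 genes tested. By direction the counts were 1 higher and 0 lower, beside 12.8% and 14.5% of all genes. The median log2 fold change of the 9 was 0.01, and the median over all genes was −0.02. Groups did not overlap for OGDH and DLST (higher) and SUCLG1 (lower), beside 21.2% and 23.0% of all genes (44.3% in either direction).

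At the entry to the cycle, PDHA1 was at 49.9, 46.9 and 39.0 CPM in vehicle libraries and 45.1, 42.7 and 52.1 CPM in those labelled DOX. CS was at 659, 642 and 671 CPM against 683, 580 and 648 CPM. IDH3A, the catalytic subunit of the NAD-dependent isocitrate dehydrogenase, was at 98.6, 93.8 and 98.9 CPM against 105, 90.3 and 94.3 CPM. The groups overlapped for all 3 genes, and the 95% intervals of their log2 fold changes ran from −0.24 to 0.32 for PDHA1, from −0.27 to 0.18 for CS and from −0.22 to 0.20 for IDH3A.

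DLST was at 94.2, 101 and 94.2 CPM in vehicle libraries and at 114, 108 and 122 CPM in those labelled DOX (log2 fold change 0.25, SE 0.09, adjusted p = 0.0633). It missed the threshold with all 6 libraries and passed it without the library labelled DOX 2 (0.33, adjusted p = 0.0183). SUCLG1, the alpha subunit of succinyl-CoA synthetase, was at 72.2, 84.4 and 90.2 CPM against 67.3, 69.5 and 68.1 CPM (−0.27, SE 0.10, adjusted p = 0.0830). It passed without vehicle replicate 1 (−0.36, adjusted p = 0.0265).

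SUCLA2, the beta subunit that makes succinyl-CoA synthetase ATP-forming, was at 58.3, 65.4 and 66.8 CPM in vehicle libraries and 63.5, 70.0 and 57.9 CPM in those labelled DOX. FH was at 142, 136 and 132 CPM against 133, 112 and 129 CPM. MDH2 was at 402, 501 and 454 CPM against 493, 485 and 481 CPM. None of the 3 passed the test, with 95% intervals of −0.23 to 0.25, −0.36 to 0.08 and −0.13 to 0.34.

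In the overexpression experiment 6 of the 9 enzymes passed the threshold, beside 67.3% of the 13836 genes tested, so their share was near that of all genes. CS, IDH3A, DLST and MDH2 rose (4 of 9, beside 33.2% of all genes) and OGDH and SUCLA2 fell (2 of 9, beside 34.1%). The groups did not overlap for 8 of the 9, 5 higher and 3 lower, beside 34.4% and 35.9% of all genes (70.3% in either direction). The median log2 fold change was 0.11 for the 9 and −0.01 over all genes.

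CS showed the largest rise of the 9, from 287, 304 and 300 CPM in LNCaP libraries to 419, 394 and 418 CPM in LNCaP/MUC1-C OE libraries (1.38-fold, log2 fold change 0.47, SE 0.05, adjusted p = 7.83e-08). DLST rose from 156, 160 and 154 to 223, 194 and 193 CPM (0.38, SE 0.06, adjusted p = 1.13e-05). MDH2 rose from 325, 355 and 318 to 392, 360 and 407 CPM (0.22, SE 0.05, adjusted p = 0.00195). For CS, DLST and MDH2 every LNCaP/MUC1-C OE library lay above every LNCaP library, though by a few CPM for MDH2. CS made up 19.3% of the summed counts of the set in LNCaP libraries and 24.2% in LNCaP/MUC1-C OE libraries (means, n = 3 each).

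IDH3A was at 129, 123 and 125 CPM in LNCaP and 132, 142 and 136 CPM in LNCaP/MUC1-C OE libraries (0.12, SE 0.05, adjusted p = 0.0347). PDHA1 was at 179, 190 and 177 against 201, 196 and 192 CPM (0.11, SE 0.05, adjusted p = 0.0510). Both lay next to the threshold, and their sign depended on the scaling of libraries. With library totals as the only scaling, which moved the median of all genes by −0.15, PDHA1 was at −0.046 and IDH3A at −0.034, and MDH2 lost its call (0.06, adjusted p = 0.319). SUCLG1 (−0.23, adjusted p = 0.000643) and FH (−0.23, adjusted p = 0.000396) passed as lower under that scaling, so that 2 members were higher and 4 lower in place of 4 and 2.

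SUCLA2 fell from 128, 127 and 127 CPM in LNCaP libraries to 88.7, 99.9 and 87.7 CPM in LNCaP/MUC1-C OE libraries (0.722-fold, log2 fold change −0.47, SE 0.05, adjusted p = 6.38e-07). SUCLG2, the beta subunit that makes the enzyme GTP-forming and competes for the same alpha subunit, rose from 56.5, 58.3 and 53.6 to 89.1, 88.9 and 81.2 CPM (0.62, SE 0.06, adjusted p = 4.72e-08). SUCLG1, the shared alpha subunit, was at 106, 101 and 107 CPM against 102, 101 and 94.2 CPM and passed, of the 12 alternatives tried, only with scaling by library totals (−0.08, 95% interval −0.19 to 0.03, with TMM scaling).

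The log2 ratio of SUCLA2 to SUCLG2 counts was 1.18, 1.12 and 1.24 in LNCaP libraries and −0.01, 0.17 and 0.11 in LNCaP/MUC1-C OE libraries. It fell by 1.09 with no overlap (two-sided exact permutation test, p = 0.1, the smallest p that 3 against 3 allows). In the DOX experiment the ratio was −1.33, −1.62 and −1.56 in vehicle libraries and −1.61, −1.60 and −1.61 in those labelled DOX, a difference of −0.10 (exact p = 0.4).

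FH was at 109, 112 and 113 CPM in LNCaP and 107, 107 and 103 CPM in LNCaP/MUC1-C OE libraries (−0.07, 95% interval −0.17 to 0.03, adjusted p = 0.184). Its groups did not overlap, and of the 12 alternatives tried the difference passed the test only with scaling by library totals, as given above. Reads of PDHA1, DLST and SUCLA2 could be shared with pseudogenes, of which the RefSeq gene table lists 1, 1 and 3 by symbol. Pseudogenes of CS and FH were not looked up.

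**Figure D3:**
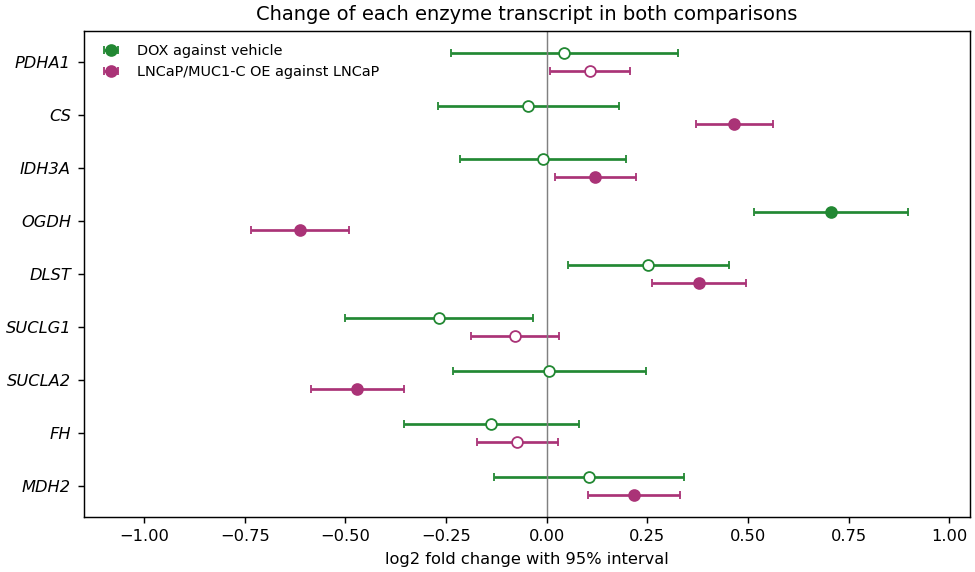
Log2 fold change of each enzyme transcript with its 95% interval, for DOX against vehicle and for LNCaP/MUC1-C OE against LNCaP; filled points passed adjusted p of 0.05. OGDH was at 0.71 and −0.61, and CS and SUCLA2 passed the threshold with overexpression, at 0.47 and −0.47.

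The other genes of the pathway were read from 8 lists with 55 genes, of which 53 were tested in each experiment. With DOX, 4 rose and 8 fell (22.6% past the threshold, beside 27.3% of all genes). With overexpression, 19 rose and 16 fell (66.0%, beside 67.3%). Neither share stood above that of all genes.

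Among the PDH kinases and phosphatases, 3 of 6 tested fell with DOX and none rose, beside 14.5% of all genes lower and 12.8% higher. PDK2, a kinase that inhibits PDH, was at 20.7, 15.2 and 17.7 CPM in vehicle libraries and 5.97, 10.5 and 6.71 CPM in those labelled DOX (log2 fold change −1.22, SE 0.23, adjusted p = 0.00571). PDPR, a regulatory subunit of PDH phosphatase, fell by 0.47 on the log2 scale (adjusted p = 0.0118). With overexpression 1 of 7 rose and 4 fell, beside 33.2% and 34.1% of all genes. The phosphatase PDP1, which reactivates PDH, went from 44.7, 45.0 and 43.3 to 27.7, 31.0 and 29.9 CPM (−0.59, adjusted p = 5.4e-07), and the kinases PDK3 (−0.27) and PDK2 (−0.30) were lower as well. Kinases and a phosphatase therefore fell in the same libraries, whereas the 1 gene of this list that rose with overexpression was also a kinase. PDK2 was lower in both experiments.

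Of the rest of the PDH complex, none of 4 passed with DOX, beside 27.3% of all genes. With overexpression none of 4 rose and 2 fell, beside 33.2% and 34.1% of all genes. These were DLD, the E3 subunit shared with the 2-oxoglutarate dehydrogenase complex (−0.26, SE 0.05, adjusted p = 8.92e-05), and PDHX, the E3-binding protein (−0.29, SE 0.06, adjusted p = 0.000204). The 2-oxoglutarate dehydrogenase complex thus had its E1 and E3 transcripts lower and its E2 transcript higher in LNCaP/MUC1-C OE cells.

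Of the rest of the cycle, 2 of 9 rose with DOX and none fell, beside 12.8% and 14.5% of all genes. Among the 2 was IDH3G, a regulatory subunit of the NAD-dependent isocitrate dehydrogenase (0.35, SE 0.10, adjusted p = 0.0312). IDH3G lost its call when any library other than DOX 2 was left out (adjusted p = 0.0747 to 0.109). With overexpression 5 rose and 2 fell, beside 33.2% and 34.1% of all genes. SDHB, the iron-sulfur subunit of succinate dehydrogenase, rose from 83.4, 86.3 and 85.8 to 130, 126 and 121 CPM (0.56, SE 0.05, adjusted p = 1.9e-08). IDH3G rose there by 0.17.

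Among genes of pyruvate entry, 1 of 5 rose and 1 fell with DOX, beside 12.8% and 14.5% of all genes. MPC2, a subunit of the mitochondrial pyruvate carrier, rose from 301, 311 and 301 to 431, 380 and 405 CPM (0.41, SE 0.09, adjusted p = 0.0108). MPC1, its partner, rose with overexpression (0.57, SE 0.06, adjusted p = 1.09e-07). There 2 of 5 rose and 1, the malic enzyme ME2, fell (−0.23), beside 33.2% and 34.1% of all genes. PCK2, the mitochondrial phosphoenolpyruvate carboxykinase, passed in both experiments with opposite signs (−1.12 and 1.83). Its groups overlapped with DOX, LNCaP/MUC1-C OE replicate 1 stood at 145 CPM against 50.4 and 47.2 in the other two, and without that library the log2 fold change was 1.10.

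Among the NADP-dependent isocitrate dehydrogenases and cytosolic counterparts, 1 of 7 rose with DOX and none fell, beside 12.8% and 14.5% of all genes. With overexpression 3 of 7 rose and none fell, beside 33.2% and 34.1% of all genes. IDH1, the cytosolic enzyme, rose in both (0.43, adjusted p = 0.0272, and 0.17, adjusted p = 0.0114). Its DOX call was lost when any library other than DOX 2 was left out (adjusted p = 0.0658 to 0.0975). IDH2, its mitochondrial counterpart, rose from 66.7, 68.3 and 67.0 to 117, 102 and 102 CPM with overexpression (0.67, SE 0.06, adjusted p = 2.06e-08), and ACLY, which splits exported citrate, rose by 0.32 on the log2 scale. Scaled by library totals alone, IDH1 was at 0.01 with overexpression and did not pass.

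Among genes of glutamine and aspartate entry, none of 9 passed with DOX, beside 27.3% of all genes. With overexpression 2 of 8 rose and 3 fell, beside 33.2% and 34.1% of all genes. GOT2, the mitochondrial aspartate aminotransferase, fell from 373, 389 and 371 to 269, 271 and 278 CPM (−0.47, SE 0.04, adjusted p = 4.08e-08). SLC25A13, an aspartate-glutamate carrier, fell by 0.39.

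Lipoylation supplies the cofactor of DLST and of the PDH E2 subunit. LIPT2, the octanoyltransferase that begins it, was lower in both experiments, with 10.0, 9.83 and 7.60 against 4.76, 4.78 and 4.27 CPM (−0.99, adjusted p = 0.00561) and 4.88, 5.60 and 6.18 against 3.65, 2.83 and 3.53 CPM (−0.72, adjusted p = 0.000871). It was the 1 of 6 to pass with DOX, beside 27.3% of all genes. With overexpression 3 of 6 rose, among them the iron-sulfur cluster protein GLRX5 (0.34), and 2 fell, beside 33.2% and 34.1% of all genes.

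Of 7 regulators of mitochondrial biogenesis, 3 fell with DOX and none rose, beside 14.5% and 12.8% of all genes. GABPA, the DNA-binding subunit of the ETS factor known as NRF2, went from 72.9, 73.8 and 78.9 to 48.1, 49.8 and 43.4 CPM (−0.68, SE 0.09, adjusted p = 0.00189). It rose with overexpression, from 71.0, 70.3 and 66.4 to 107, 103 and 100.02 CPM (0.58, SE 0.05, adjusted p = 3.52e-08). NRF1 had the same signs (−0.84 and 0.35), with overlapping groups in the DOX experiment. PPARGC1A, the coactivator PGC-1 alpha, fell from 11.7, 12.8 and 11.5 to 4.06, 3.37 and 4.07 CPM with overexpression (−1.64, SE 0.13, adjusted p = 4.43e-09). With overexpression 3 of the 7 rose and 2 fell, beside 33.2% and 34.1% of all genes.

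MYC, which the study links to MUC1-C, was at 375, 623 and 622 CPM in vehicle libraries and 391, 376 and 313 CPM in those labelled DOX (−0.59, SE 0.19, adjusted p = 0.0491), with overlapping groups. This call was kept in 3 of 15 alternatives. It was kept without vehicle replicate 1 (−0.80, adjusted p = 0.00516), the vehicle library at 375 CPM. It was lost without vehicle replicate 2 (−0.48) or 3 (−0.48) and without the library labelled DOX 1 (−0.66), 2 (−0.59) or 3 (−0.50). It was also lost with median-of-ratios factors (adjusted p = 0.0576), library totals alone (0.0633) and at least 10 counts in every library (0.0507). MYC was at 105, 115 and 115 CPM in LNCaP and 130, 121 and 123 CPM in LNCaP/MUC1-C OE libraries (0.16, SE 0.05, adjusted p = 0.0117).

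**Figure D4:**
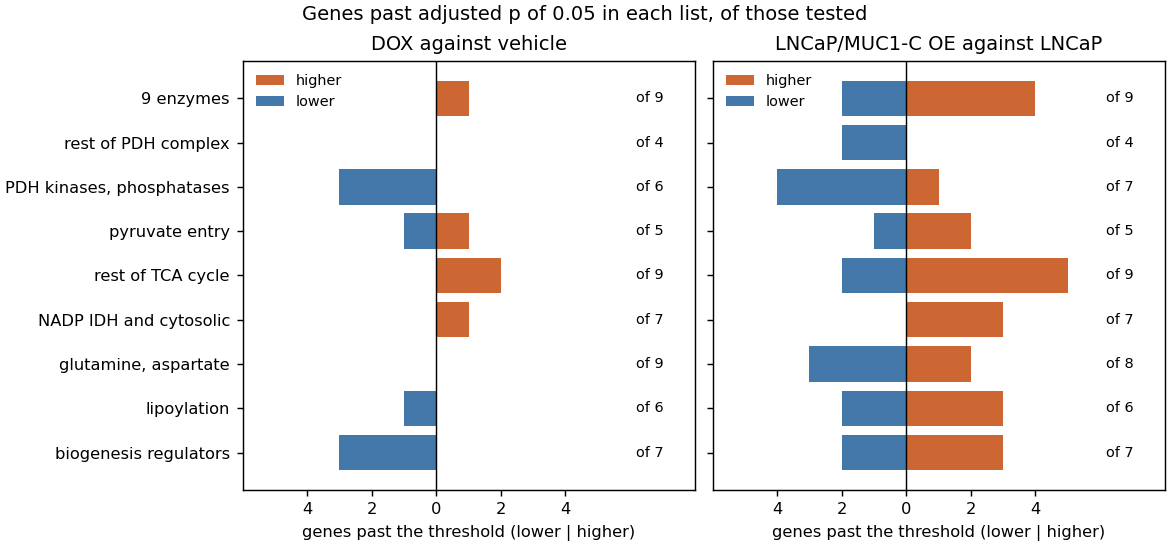
Number of genes past adjusted p of 0.05 in each list, lower to the left and higher to the right of 0, with the number tested beside each bar. Over the 8 lists without the 9 enzymes, 4 genes were higher and 8 lower with DOX, and 19 higher and 16 lower with overexpression.

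Promoter sequence was read for the 8 members other than OGDH from RefSeq (GRCh38.p14), in windows of 300 bases of which 250 lie before the annotated start. Letters for 4 factors were searched on both strands: CACGTG, the E-box bound by MYC, TGCGCA, the core of the NRF1 site, CCGGAAG, the ETS site bound by GABPA, and AAGGTCA, the site of estrogen-related receptors, which PPARGC1A coactivates. CACGTG was in none of the 8 windows and in 7.26% of 35116 promoters. TGCGCA was in 1 (IDH3A; 8.24% of all), CCGGAAG in 2 (DLST and MDH2; 10.3%) and AAGGTCA in 1 (SUCLA2; 3.92%). A match is a description of letters and not a bound site.

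The 250 bases before the start are shown for the 4 genes with the clearest changes beside OGDH under overexpression or with 2 matches, with matches on either strand in capitals. CS (chr12:56300331-56300580, minus strand) rose and held none of the 4. DLST (chr14:74881666-74881915, plus strand) and MDH2 (chr7:76047856-76048105, plus strand) rose and held the ETS letters, 22 bases before the start in DLST and 113 and 69 bases before it in MDH2. SUCLA2 (chr13:48001274-48001523, minus strand) fell and held AAGGTCA 183 bases before the start.
CS: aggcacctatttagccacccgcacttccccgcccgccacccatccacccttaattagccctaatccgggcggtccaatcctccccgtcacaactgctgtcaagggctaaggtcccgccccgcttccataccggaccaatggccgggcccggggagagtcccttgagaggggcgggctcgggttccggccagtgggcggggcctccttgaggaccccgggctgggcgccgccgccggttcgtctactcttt
DLST: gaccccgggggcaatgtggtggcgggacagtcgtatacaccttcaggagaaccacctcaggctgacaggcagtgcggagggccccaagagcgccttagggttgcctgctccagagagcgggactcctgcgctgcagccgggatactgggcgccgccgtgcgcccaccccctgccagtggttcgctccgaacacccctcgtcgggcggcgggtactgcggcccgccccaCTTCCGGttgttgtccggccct
MDH2: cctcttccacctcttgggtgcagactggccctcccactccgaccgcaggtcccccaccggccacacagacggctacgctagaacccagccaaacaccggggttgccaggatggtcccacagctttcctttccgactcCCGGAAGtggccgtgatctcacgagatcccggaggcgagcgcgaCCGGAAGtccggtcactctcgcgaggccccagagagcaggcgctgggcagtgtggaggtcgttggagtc
SUCLA2: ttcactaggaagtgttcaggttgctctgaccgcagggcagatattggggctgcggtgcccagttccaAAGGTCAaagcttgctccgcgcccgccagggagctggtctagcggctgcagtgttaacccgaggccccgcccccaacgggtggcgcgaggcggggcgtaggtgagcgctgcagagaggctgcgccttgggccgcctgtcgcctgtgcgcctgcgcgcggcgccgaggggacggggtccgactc

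The 3 genes outside the lists with levels most like those of CS were IVNS1ABP, PHF6 and CSE1L, with Pearson correlations of log2 CPM of at least 0.957, 0.955 and 0.943 within both experiments (6 libraries each, 6424 genes compared). The libraries of an experiment share its group difference, so these values are a description.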

How the data were processed

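Total RNA was sequenced by the authors as bulk RNA-Seq in 12 libraries of LNCaP-derived cells. Per the labels and the study's methods, reads were aligned with STAR (GRCh38/hg38) and analysed with DESeq2; versions are not given in the sources used here. The authors deposited raw gene counts for both experiments and TPM for the DOX experiment. The counting's use of strand is not given in the sources used here. In the overexpression table, 12 columns of other samples were not used.

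Counts were tested per experiment with edgeR 4.0.16 (R 4.3.3; TMM, filterByExpr, robust quasi-likelihood F test, no covariate), with Benjamini-Hochberg adjustment over all genes tested and a threshold of 0.05. CPM are TMM-scaled, and marker sums are per library total. Intervals of 95% use the fitted SE. Alternatives were DESeq2 1.42.0, other scalings and filters, a replicate block, leaving out each library, and limma 3.58.1 on log2(TPM + 1) or log2(TPM + 0.1). The fits were tried on simulated counts with a single dispersion for all genes and no outlying library. That setting does not show how the fits behave on these libraries. Pathway genes named are the 2 with the smallest p in each list, where past the threshold, and those past it in both experiments; other genes were named after their values were seen. The members and lists were chosen with earlier results of these data known. Values of 2 of the genes in these lists are not reported here.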

Additional observations from a re-analysis of the deposited data

How the results depend on the processing

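OGDH was higher in the libraries labelled DOX under all 15 alternatives (log2 fold change 0.68 to 1.26, adjusted p up to 0.0184) and lower in LNCaP/MUC1-C OE libraries under all 12 (−0.77 to −0.57, adjusted p up to 9.79e-07). CS, DLST and SUCLA2 kept their calls under all 12 alternatives of the overexpression comparison.

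In the DOX comparison, 2 members (OGDH and DLST) passed when libraries were scaled by totals alone, and 2 with at least 10 counts in every library. By TPM, 6 passed with a pseudocount of 1 or 0.1 and 2 with no filter. TPM moved the median of all genes by 0.48 and made 95.04% of calls higher, against 46.8% in counts; totals alone gave 59.6%. Pathway genes past the threshold were 25 by TPM with either pseudocount, and all genes 2598 by TPM with no filter. By TPM with a pseudocount of 1, of 0.1 and with no filter, signs reversed for CS (0.505, 0.508 and 0.505), IDH3A (0.526, 0.543 and 0.526), SUCLG1 (0.289, 0.294 and 0.289), FH (0.408, 0.414 and 0.408), PDPR (0.067, 0.085 and 0.067) and MYC (0.0031, 0.0029 and 0.0031). PDK2, LIPT2, GABPA and NRF1 kept their sign and lost their calls by TPM. IDH3A was also positive with DESeq2 (0.0068), median-of-ratios factors (0.014), totals alone (0.061) and at least 10 counts (0.0032), and CS with totals alone (0.026). The cause was not tested.

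Leaving out 1 library of the DOX comparison gave 1 to 2 members, 3 to 23 pathway genes (23 without the library labelled DOX 2), 2002 to 5243 genes in all and a SUCLA2 to SUCLG2 difference of −0.16 to −0.01. Signs changed within ranges of −0.060 to 0.14 for PDHA1, −0.10 to 0.051 for CS, −0.080 to 0.068 for IDH3A, −0.057 to 0.066 for SUCLA2 and −1.83 to 0.62 for MUC1. IDH1 lost its call without any library other than DOX 2 (adjusted p = 0.0658 to 0.0975), MPC2 without vehicle replicate 2 or 3 (0.0517 and 0.0670) and PDPR without vehicle replicate 3 (0.0648).

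In the overexpression comparison, leaving out 1 library gave 5 to 7 members, 27 to 36 pathway genes, 8486 to 9512 genes in all and a ratio difference of −1.13 to −1.04. Totals alone made 32.3% of calls higher against 49.4%, put PDHA1 at −0.046 and IDH3A at −0.034, made SUCLG1 and FH pass as lower (2 members higher and 4 lower), and ended the calls of IDH3G (0.015) and MYC (0.0066). IDH3A lost its call with DESeq2 (adjusted p = 0.0593), with at least 10 counts (0.101) and without LNCaP replicate 2 or 3 or LNCaP/MUC1-C OE replicate 2, IDH3G without LNCaP replicate 1 or 3 or LNCaP/MUC1-C OE replicate 3 (0.0571 to 0.0770), IDH1 without LNCaP replicate 3 (0.0791) and MYC without LNCaP replicate 1 (0.0900). PCK2 kept its call in 4 of 12 alternatives there and in 7 of 15 with DOX, and NRF1 in 8 of 15 with DOX.

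Replicate numbers gave no sign of pairing, though 3 libraries per group cannot exclude it. Deviations of same-numbered libraries correlated at 0.087, −0.0028 and −0.074 with DOX and at −0.029, −0.15 and −0.037 with overexpression. The replicate block gave 4226 calls with DOX and 8965 with overexpression, against 4006 and 9312, put MUC1 at −0.62 with DOX, and ended the calls of MYC with DOX (adjusted p = 0.0549) and of IDH3A (0.0774) and PCK2 (0.114) with overexpression. With DOX the block also lowered the adjusted p of PCK2 (0.00159, from 0.0451) and of NRF1 (0.00314, from 0.0282).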
